A study of Mus musculus with 30 samples.

Results

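The transcripts described here are 35 genes that macrophages and monocytes are known to express, measured in mouse hearts. They were chosen by name from a list of symbols. The rule uses no measured value, but the list was drawn up with earlier results of these data known. All 35 were found in both count tables, which list 78258 genes (postpartum study) and 56691 genes (diet study). The hearts came from wild-type (WT) mice or from mice with the S55L mutation of CHCHD10, a protein of the mitochondrial intermembrane space. In the postpartum study, the naive WT and S55L mice had reached 100 days of age, and the postpartum (PP) mice were bred at 65 days and sacrificed on day 0 after giving birth. Every heart of the diet study was S55L and PP, and the mice had eaten a control diet or one with EH301 while they were bred. EH301 is a supplement of nicotinamide riboside, a precursor of NAD, and pterostilbene. The labels give neither the zygosity of S55L nor the strain, and the mutation is named with no driver or cell type, so it is described only as a genotype of the mouse. Each group was deposited as 5 count columns. Columns 1 and 2 of WT PP were identical, as were columns 1 and 2 of S55L PP, and each pair was counted as 1 library. The fifth control diet column held the same values as EH301 diet column 6, and neither copy was used because its diet cannot be known. The groups compared therefore held 5 WT naive, 4 WT PP, 5 S55L naive and 4 S55L PP libraries, and 4 libraries on each diet.

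Cardiac macrophages are of different origins. Resident macrophages largely settle in the heart before birth, renew themselves locally and carry surface proteins such as LYVE1, TIMD4, FOLR2 and CD163. Recruited macrophages descend from blood monocytes, which enter the tissue through the chemokine receptor CCR2, and scavenger receptors such as MSR1 are characteristic of cells that take up lipid and debris. Growth and survival of both depend on signalling through CSF1R, and their identity depends on the transcription factor PU.1, encoded by Spi1.

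Reads on genes ranged from 1418715 to 2949993 per library in WT and from 2755500 to 5131316 in S55L of the postpartum study, and from 466651 to 3048461 in the diet study. No label names a library plate, and plate columns were inferred from position codes in the headers of the count columns. Depth, the share of reads on genes (58.3% to 61.6% in WT, 66.3% to 69.2% in S55L) and the plate column all moved with genotype. So did the share of reads that map to several places (24.7% to 27.3% in WT, 17.5% to 21.2% in S55L) and the mitochondrially encoded share of reads on genes (16.8% to 24.6% in WT, 9.52% to 15.5% in S55L). Their part in the genotype differences was not tested except where a value is given. Levels are CPM, the reads on a gene per 1000000 reads of a scaled library. A difference was called where the adjusted p of edgeR's quasi-likelihood test was under 0.05 (Benjamini-Hochberg, over all genes tested). The filter on low counts left 33 members to test in postpartum-study libraries and 32 in those of the diet study. Timd4 and Ccr2 fell below it in both, and Itgam had no read in any diet library. Standard errors (SE) are on the log2 scale. Nothing in the labels states that libraries are separate mice, and the spread behind every p-value is that between libraries.

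Because these genes moved together with genotype, 4 of their promoters are shown first, as the 250 bases before the transcription start in RefSeq (build GRCm38.p6), 5′ to 3′ on the gene's strand. The submitters' notes name another build for the alignment, so these coordinates were used for the sequences only. Trem2 and C1qc hold 1 match each to GAGGAA, the core of the box that PU.1 binds, written in capitals in the orientation in which it lies (here its reverse complement TTCCTC). Cx3cr1 and Cd163 hold none.
Trem2 promoter (chr17:48346151-48346400, + strand): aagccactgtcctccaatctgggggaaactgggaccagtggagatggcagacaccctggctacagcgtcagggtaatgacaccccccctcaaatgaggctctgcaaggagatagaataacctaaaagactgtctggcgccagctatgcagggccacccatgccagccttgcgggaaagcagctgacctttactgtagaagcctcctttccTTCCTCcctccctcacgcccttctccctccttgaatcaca
C1qc promoter (chr4:136892915-136893164, - strand): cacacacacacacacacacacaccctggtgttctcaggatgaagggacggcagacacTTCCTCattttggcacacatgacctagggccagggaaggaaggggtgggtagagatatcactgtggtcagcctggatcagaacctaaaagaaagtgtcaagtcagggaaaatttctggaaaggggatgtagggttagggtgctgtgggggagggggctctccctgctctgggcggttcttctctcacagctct
Cx3cr1 promoter (chr9:120068297-120068546, - strand): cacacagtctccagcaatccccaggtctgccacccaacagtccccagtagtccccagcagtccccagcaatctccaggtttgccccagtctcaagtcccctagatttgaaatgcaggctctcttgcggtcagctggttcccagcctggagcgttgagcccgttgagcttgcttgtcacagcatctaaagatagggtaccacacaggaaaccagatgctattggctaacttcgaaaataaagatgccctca
Cd163 promoter (chr6:124304401-124304650, + strand): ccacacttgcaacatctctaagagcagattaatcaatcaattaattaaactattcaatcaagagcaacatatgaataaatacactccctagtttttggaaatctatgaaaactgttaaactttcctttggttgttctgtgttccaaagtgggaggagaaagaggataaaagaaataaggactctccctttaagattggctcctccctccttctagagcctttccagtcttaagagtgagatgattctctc
Of the 35 members, 28 had an entry among these promoters. GAGGAA, searched on both strands, was found in 14 of the 28 (50%) and in 25.9% of all 27025 genes with such promoters. A gene with several starts was counted once, if any of its promoters held a match. The longer box AGAGGAAGT was found in 0 of the 28 and in 0.94% of all. CACGTG, the E-box of the MITF and TFE factors that drive lysosomal genes, was found in 0 of the 28 and in 6.86% of all, and the AP-1 site TGACTCA in 2 of the 28 (7.14%, Cd68 and Folr2) and in 5.16% of all. GAGGAA lies within AGAGGAAGT, so the first count includes any of the second.

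Macrophage and monocyte genes were higher in S55L than in WT hearts before any pregnancy. In the naive comparison, 30 of 33 tested members rose in S55L and 0 fell, where 21.9% of all 11945 genes tested rose. The median log2 fold change of the members was 2.21, against -0.00 over all genes, and the 30 that rose spanned 1.21 to 6.45. For 27 of the 33 every S55L library lay above every WT library, as was so for 16.8% of all genes. Summed over the 35 members, the level was 479 to 585 CPM in WT naive and 2334 to 2824 CPM in S55L naive libraries. In bulk tissue more cells of a type and more RNA per cell cannot be told apart.

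In postpartum hearts 27 of 33 members were higher in S55L and 0 lower, where 16.4% of all genes were higher. The members' median log2 fold change was 1.58, against 0.00 over all genes, and 28 of the 33 did not overlap between genotypes, against 13.7% of all genes. The summed level was 653 to 846 CPM in WT PP and 2152 to 3578 CPM in S55L PP libraries. All 27 were among the 30 that rose in naive hearts. Lyve1, Cd163 and Fcgr1 passed in naive hearts only, and Folr2, Cyba and Mertk in neither. With the plate column as a term, 22 members rose in naive and 19 in PP hearts, where 1388 and 1072 of all 11945 genes rose. All WT naive libraries lay in plate column 1 and all S55L naive libraries in column 2. The shift fitted between these columns rests on WT PP 1, so these fits cannot separate plate from genotype. The calls lost were those of C1qa, Cd163, Fcgr1, Ptprc, Cd53, Mpeg1, Cybb and Ly86 in naive hearts and of C1qa, C1qb, Mrc1, Msr1, Itgam, Ptprc, Laptm5, Cybb and Ly86 in PP hearts, where Lyve1 was gained. With that term the log2 fold changes of the calls lost were 0.77 to 1.93 in naive hearts (SE 0.50 to 0.89) and 0.89 to 1.87 in PP hearts (SE 0.33 to 0.83). Among these, genes with larger values than without the term included C1qa (1.77 in naive and 1.72 in PP hearts). In PP hearts they also included C1qb (1.59), Ptprc (1.495), Msr1 (1.64) and Itgam (1.87). The log2 fold changes were smaller for Cd53 (0.77) and Cd163 (0.90), among others, in naive hearts. Within plate column 2 the only WT library, WT PP 1, had a summed level of 653 CPM and the 6 S55L libraries had 2334 to 3578 CPM. Scaling by total counts moved the median of all genes to 0.24 and 0.27 on the log2 scale, with 4013 genes higher and 1485 lower in naive and 3450 and 980 in PP hearts, against 2615 and 2578, and 1957 and 1813, in the main scaling. Members then called were 32 and 29, all higher, with medians of 2.46 and 1.86.

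**Figure D1:**
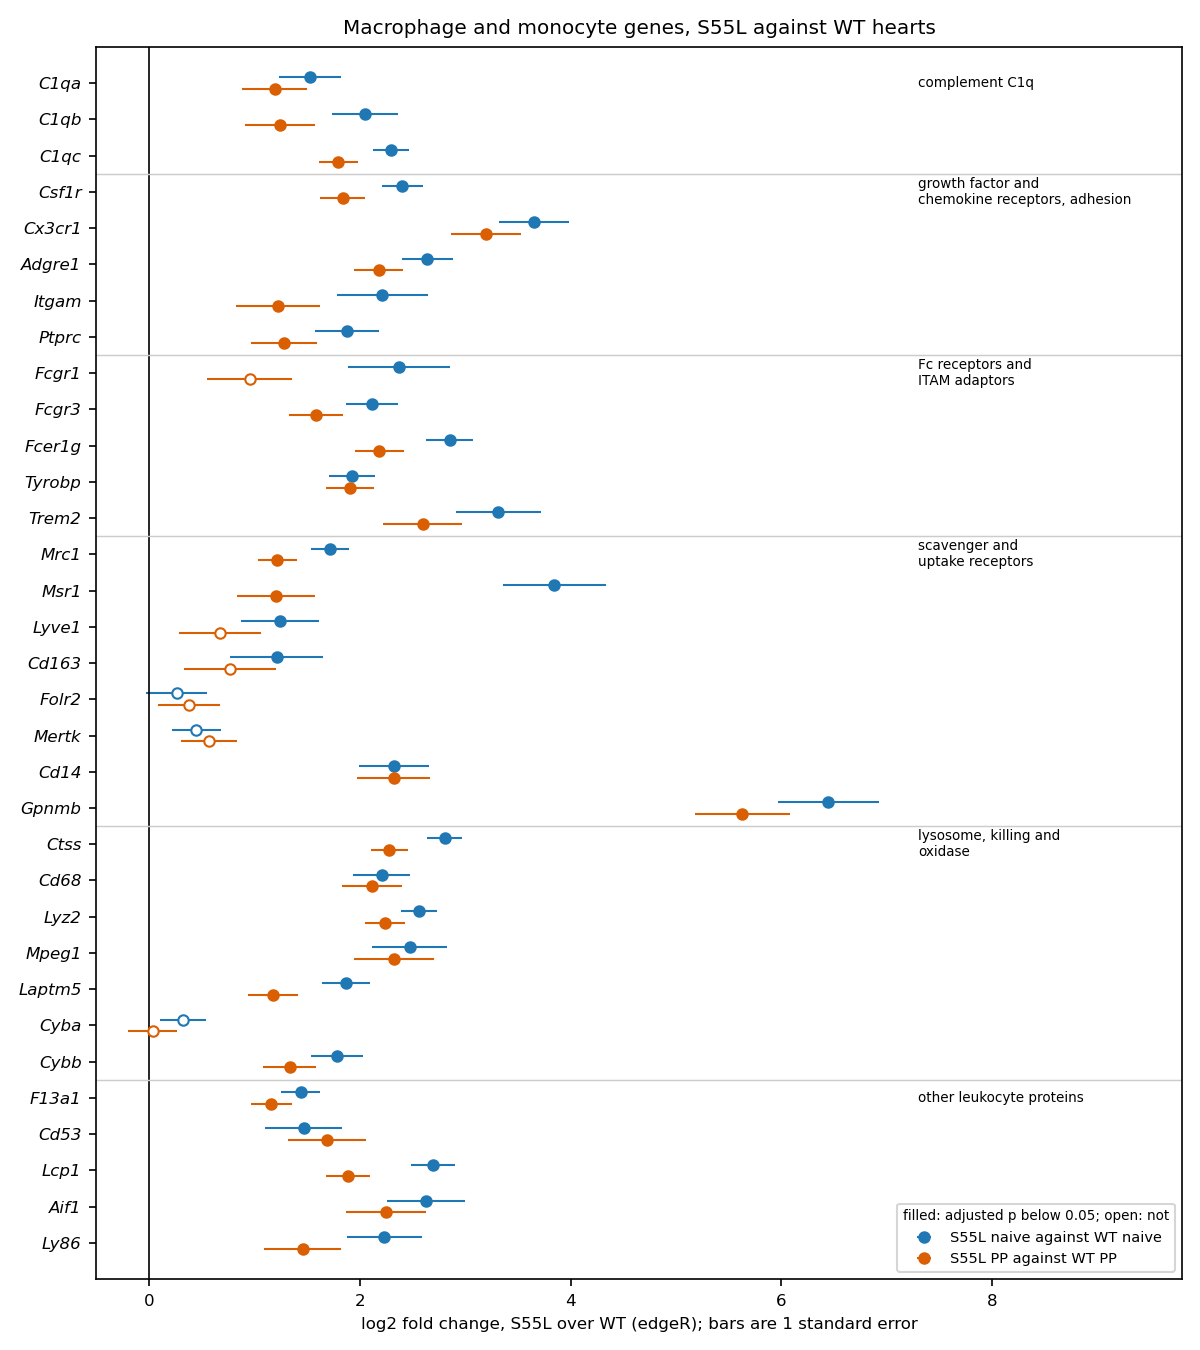
Log2 fold change of S55L over WT (x axis) for the 33 tested macrophage and monocyte genes, grouped by role, in naive hearts (blue) and postpartum hearts (orange). Points are edgeR estimates, bars are 1 SE and filled points have an adjusted p under 0.05. Gpnmb lies farthest right in both comparisons (6.45 and 5.63), while Folr2, Mertk and Cyba are open in both.

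Complement C1q, the recognition molecule that tags debris and is made largely by tissue macrophages, was higher through all 3 chain genes in both comparisons. C1qc had 48.6, 58.4, 61.0, 49.6 and 66.8 CPM in WT naive libraries and 332, 269, 286, 244 and 269 CPM in S55L naive libraries. No library overlapped between genotypes, and C1qc rose by 2.30 on the log2 scale (SE 0.17, adjusted p = 3.4e-11) in naive hearts and 1.80 (SE 0.18, adjusted p = 1.9e-08) in PP hearts. C1qb rose by a log2 fold change of 2.05 in naive and 1.24 in PP hearts. C1qa rose by 1.53 and 1.20 on the same scale, and its highest S55L naive library, at 118 CPM, stood above the others at 40.7 to 56.5 CPM.

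Of the growth factor receptor, chemokine receptor and adhesion genes, all 5 that were tested rose in both comparisons. Over all genes 21.9% rose in naive and 16.4% in PP hearts. Csf1r, the receptor for the macrophage growth factors CSF1 and IL-34, rose by 2.40 on the log2 scale (SE 0.20, adjusted p = 1.9e-10) in naive and 1.84 (SE 0.21, adjusted p = 1.4e-07) in PP hearts. Cx3cr1, the fractalkine receptor of monocytes and many resident macrophages, had 4.09, 0, 4.65, 3.42 and 3.93 CPM in WT naive and 22.0, 41.2, 65.1, 41.5 and 48.1 CPM in S55L naive libraries. In PP hearts it had 3.96, 7.22, 3.60 and 6.41 CPM in WT against 56.5, 43.1, 55.9 and 40.6 CPM in S55L. Every S55L library lay above every WT library in both states, and the rise was 12.6-fold in naive (log2 3.66, SE 0.33, adjusted p = 4.5e-09) and 9.18-fold in PP hearts (log2 3.20, SE 0.33, adjusted p = 5.4e-08). Adgre1, which encodes the F4/80 antigen, rose by a log2 fold change of 2.64 and 2.18. Itgam (CD11b), an integrin shared by monocytes, macrophages and neutrophils, rose by 2.22 and 1.22, and its PP call was lost with an adjusted p of 0.075 without WT PP 1, 0.065 without WT PP 4 and 0.058 with libraries thinned to equal depth, where its log2 fold change was 1.55. Ptprc (CD45), carried by all leukocytes, rose by 1.88 and 1.29.

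The Fc receptors and their signalling partners also moved with genotype. Fcer1g and Tyrobp, the adaptor chains through which Fc receptors and TREM2 signal, rose by log2 fold changes of 2.85 and 1.93 in naive and 2.19 and 1.91 in PP hearts. Trem2, a receptor for lipids on macrophages that clear debris, had 2.05, 3.25, 1.16, 0.570 and 0.491 CPM in WT naive and 17.4, 12.2, 21.1, 12.2 and 8.02 CPM in S55L naive libraries. In PP hearts its levels were 3.60, 3.89, 3.001 and 0.713 CPM in WT and 17.0, 14.3, 17.7 and 17.0 CPM in S55L. The genotypes did not overlap in either state, and Trem2 rose 9.94-fold in naive (log2 3.31, SE 0.40, adjusted p = 2.3e-07) and 6.05-fold in PP hearts (log2 2.60, SE 0.37, adjusted p = 4.5e-06). Fcgr3, a low-affinity receptor for IgG, rose by 2.11 and 1.58 on the log2 scale. Fcgr1, the high-affinity receptor, rose by 2.37 (adjusted p = 0.00026) in naive hearts and was at 0.96 on the log2 scale in PP hearts (SE 0.40, adjusted p = 0.072), where its libraries still did not overlap between genotypes. With total counts the PP difference was called (1.22, adjusted p = 0.020).

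The scavenger and uptake receptors were the group with the widest spread, from Gpnmb at the top to Folr2 near the bottom of all members. Gpnmb, a glycoprotein of lysosome-rich and lipid-laden macrophages, had 0, 0, 0, 1.14 and 0 CPM in WT naive and 22.4, 27.7, 27.5, 23.5 and 16.5 CPM in S55L naive libraries. In PP hearts it had 0.360, 0.555, 0.6001 and 0.356 CPM in WT and 27.9, 29.7, 13.6 and 24.2 CPM in S55L. Gpnmb was close to absent from WT hearts, with 2 reads over all WT naive and 4 over all WT PP libraries, against 547 and 362 in the S55L groups. By reads per library size it was 103 times higher in naive S55L hearts (95% counting interval 28.3 to 851) and 54.5 times higher in PP hearts (21.1 to 201), intervals that cover counting error only. Both WT naive reads lay in WT naive 4. Without that library the group had no read, and the fitted naive log2 fold change was 9.23, a value that depends on the prior count. The edgeR log2 fold changes were 6.45 (SE 0.48, adjusted p = 3.7e-11) and 5.63 (SE 0.45, adjusted p = 3.3e-10). Cd14, the co-receptor for bacterial lipopolysaccharide, rose by 2.33 and 2.32, and Mrc1, the mannose receptor CD206, by 1.72 and 1.22. Mertk, a receptor for dying cells, was not called in either comparison (log2 fold change 0.45, SE 0.23, adjusted p = 0.12 in naive, and 0.57, SE 0.27, adjusted p = 0.11 in PP hearts). With total counts it was called at 0.70 and 0.84 (adjusted p = 0.016 and 0.015), before allowing for the shift of all genes. It was also called in naive hearts with no filter (0.575, adjusted p = 0.039) and without S55L naive 5 (0.59, adjusted p = 0.038), and in PP hearts with all deposited columns (0.57, adjusted p = 0.049), where identical columns count as separate libraries.

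The lysosomal and microbicidal members rose, 6 of 7 in each comparison, where 21.9% (naive) and 16.4% (PP) of all genes rose. Ctss, a lysosomal protease that trims the invariant chain of MHC class II, rose by 2.81 on the log2 scale in naive (SE 0.17, adjusted p = 1e-12) and 2.28 in PP hearts (SE 0.18, adjusted p = 1.9e-10). Lyz2, the lysozyme of myeloid cells, rose from 146 to 189 CPM in WT naive to 851 to 1221 CPM in S55L naive libraries, a log2 fold change of 2.56 with no overlap. Cd68, a lysosomal membrane protein, rose by 2.21 and 2.11. Mpeg1 (perforin-2) rose by 2.47 and 2.33, and Laptm5, a lysosomal protein of blood cells, by 1.87 and 1.18. The catalytic subunit of the phagocyte NADPH oxidase, Cybb, rose by 1.79 and 1.34. Its partner Cyba, which other cell types also use for other NADPH oxidases, was not called, at 0.32 (SE 0.22, adjusted p = 0.24) and 0.04 (SE 0.23, adjusted p = 0.92). With total counts Cyba was called in naive hearts (0.57, adjusted p = 0.027). The remaining leukocyte proteins F13a1, Cd53, Lcp1, Aif1 and Ly86 all rose in both comparisons, from 1.44 to 2.697 on the log2 scale in naive and from 1.16 to 2.25 in PP hearts. The PP call of Ly86 was lost with thinned libraries (1.37, adjusted p = 0.078).

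The resident and recruited genes had few reads and are described one by one. Lyve1 (ENSMUSG00000030787), the hyaluronan receptor of resident macrophages and of lymphatic endothelium, had 14.8, 30.0, 13.9, 12.0 and 13.3 CPM in WT naive and 71.5, 33.5, 24.1, 41.3 and 22.8 CPM in S55L naive libraries. In PP hearts it had 10.4, 26.1, 28.8 and 28.9 CPM in WT and 38.7, 27.5, 27.3 and 55.5 CPM in S55L. The genotypes overlapped in both states. Lyve1 rose by 1.25 on the log2 scale in naive hearts (SE 0.37, adjusted p = 0.011), and was at 0.67 in PP hearts (SE 0.39, adjusted p = 0.21). With the plate column as a term it was called in both states, at 2.67 and at 2.40 (adjusted p = 0.013 and 0.025). WT PP 1 was the only WT library outside plate column 1, so the shift fitted between columns 1 and 2 rests on it. Its Lyve1 level, 10.4 CPM, was the lowest of WT PP. Other markers of lymphatic endothelium went different ways, with Pdpn higher (1.20, adjusted p = 0.0014) and Prox1 and Ccl21a lower (-0.64 and -1.71, adjusted p = 0.00087 and 0.00028) in naive S55L hearts. The summed level of the 5 lymphatic endothelial markers was 222 to 306 CPM in WT naive and 121 to 185 CPM in S55L naive libraries, and the part of those cells in the Lyve1 level was not tested.

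Cd163 (ENSMUSG00000008845), the haemoglobin scavenger receptor, had 3.07, 4.06, 1.74, 2.28 and 1.97 CPM in WT naive and 9.74, 5.68, 5.32, 6.22 and 2.82 CPM in S55L naive libraries. The PP libraries had 4.33, 0.555, 5.40 and 4.28 CPM in WT and 4.18, 5.80, 4.01 and 11.8 CPM in S55L. Only 1 S55L naive library fell within the WT naive range, while in PP hearts the ranges overlapped. Cd163 rose by 1.21 on the log2 scale in naive hearts (SE 0.44, adjusted p = 0.027). That call was lost without WT naive 3, 4 or 5 or S55L naive 1, with adjusted p of 0.069, 0.055, 0.069 and 0.089. In PP hearts the log2 fold change was 0.77 (SE 0.44, adjusted p = 0.19). Folr2 (ENSMUSG00000032725), a folate receptor of resident macrophages, had 4.09, 4.06, 10.5, 10.3 and 8.36 CPM in WT naive and 14.5, 6.57, 9.53, 7.07 and 7.58 CPM in S55L naive libraries. Its PP libraries had 6.49, 11.7, 9.002 and 10.7 CPM in WT and 12.0, 9.60, 11.5 and 16.1 CPM in S55L. The values overlapped in both states, with log2 fold changes of 0.26 (approximate 95% interval -0.30 to 0.83, adjusted p = 0.48) and 0.38 (95% interval -0.20 to 0.96, adjusted p = 0.35). Both intervals lie below the members' medians of 2.21 and 1.58.

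Timd4 (ENSMUSG00000055546), a phosphatidylserine receptor of self-renewing resident macrophages, had 1.02, 0, 0, 0 and 0.491 CPM in WT naive and 1.66, 2.13, 1.55, 1.70 and 1.52 CPM in S55L naive libraries. The S55L values were all above the WT values but rest on 40 reads against 3, a ratio of 5.01 (95% counting interval 1.60 to 25.3). A two-sided exact permutation test gave p = 0.0079, the smallest that 5 against 5 allows, and 0.079 after adjustment over the 10 tests of Timd4 and Ccr2. In an edgeR fit without the low-count filter its adjusted p was 0.016. In PP hearts Timd4 had 2.16, 1.11, 0 and 1.78 CPM in WT and 1.67, 0.670, 2.67 and 3.10 CPM in S55L, which overlap (exact permutation p = 0.34, adjusted 0.86).

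Msr1 (ENSMUSG00000025044), the class A scavenger receptor, had 0, 0, 0.581, 0 and 1.97 CPM in WT naive and 9.32, 7.81, 11.3, 8.197 and 7.15 CPM in S55L naive libraries. The PP libraries had 2.16, 4.997, 3.60 and 3.207 CPM in WT and 8.35, 10.3, 5.62 and 6.82 CPM in S55L. No S55L library overlapped a WT library of the same state. Msr1 rose by 3.85 on the log2 scale in naive hearts (SE 0.49, adjusted p = 4.7e-07), the second largest of the 33 members after Gpnmb, on 202 reads against 5. In PP hearts it rose by 1.20 (SE 0.37, adjusted p = 0.014), a call that was lost without WT PP 1 (adjusted p = 0.061), without S55L PP 3 (0.059) and with libraries thinned to equal depth (0.14). Ccr2 (ENSMUSG00000049103), which lets monocytes leave bone marrow and enter tissue, had 2.56, 0, 2.33, 1.71 and 0.491 CPM in WT naive and 2.49, 2.13, 1.55, 3.11 and 0.650 CPM in S55L naive libraries. Its PP levels were 2.52, 1.11, 1.20 and 2.49 CPM in WT and 1.39, 0.893, 2.94 and 3.10 CPM in S55L. All groups overlapped. S55L over WT ratios of Ccr2 were 1.30 (95% counting interval 0.690 to 2.63) in naive and 1.003 (0.541 to 1.91) in PP hearts, and the exact permutation tests gave p = 0.42 and 0.60 (adjusted 0.86 for both). The recruited pair was thus split in naive hearts, with Msr1 near the top of the members. In PP hearts Msr1 lay below the members' median of 1.58. No difference in Ccr2 was detectable at this depth in either state.

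**Figure D2:**
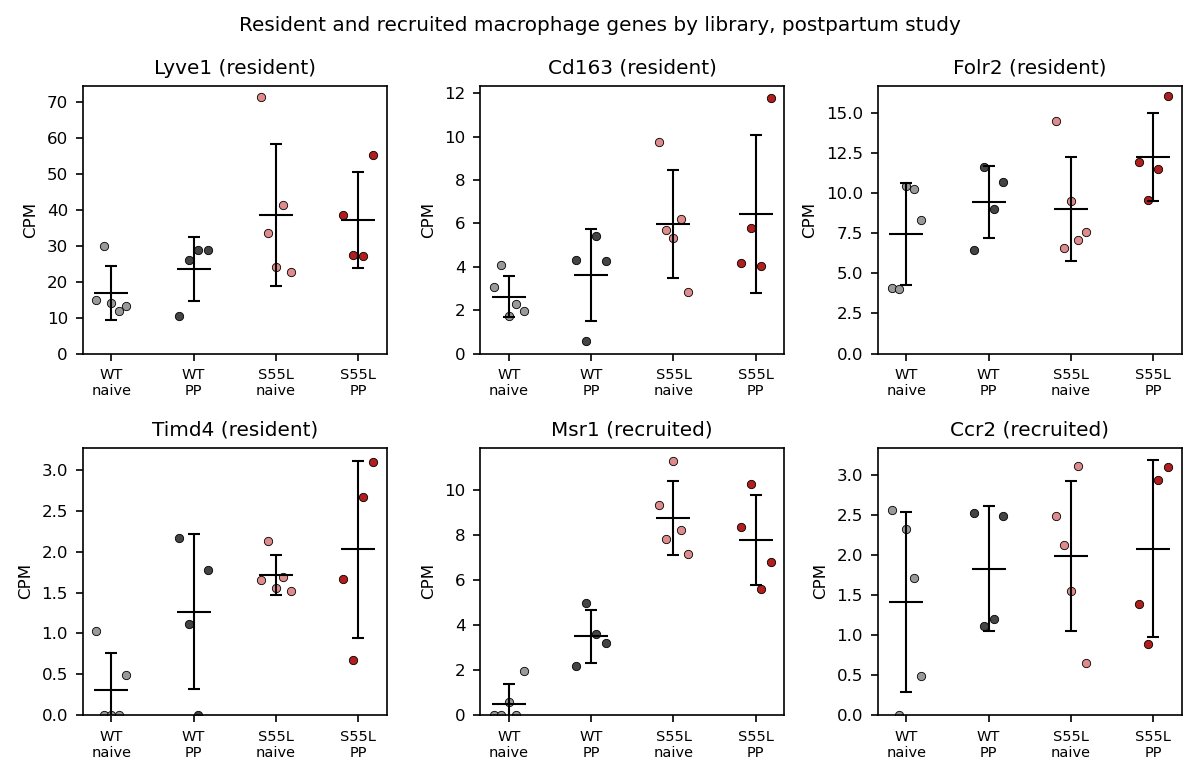
CPM (y axis, a separate scale in each panel) of the resident genes Lyve1, Cd163, Folr2 and Timd4 and the recruited genes Msr1 and Ccr2 in each library of the 4 groups of the postpartum study. Points are libraries, horizontal bars are means and whiskers 1 SD. Msr1 separates the genotypes in both states (0 to 1.97 against 7.15 to 11.3 CPM in naive hearts), while Folr2 and Ccr2 overlap throughout.

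As a description of both sets together, the mean log2 CPM of the 4 resident genes minus that of Msr1 and Ccr2 was 1.73 ± 0.67 in WT naive (SD, n = 5), 0.97 ± 0.20 in WT PP (n = 4), 0.80 ± 0.27 in S55L naive (n = 5) and 1.02 ± 0.30 in S55L PP (n = 4). WT naive was the highest and most variable group, at 1.06 to 2.83, and its range overlapped that of S55L naive, at 0.56 to 1.19. The mean of the resident genes went from 2.11 in WT naive to 3.06 in S55L naive and that of the recruited genes from 0.38 to 2.26. Msr1 had 5 reads in WT naive hearts, and with a prior count of 0.5 in place of 2 the WT naive value was 2.33 ± 1.25.

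Further resident macrophage genes also moved with genotype. Of 9 such genes 6 were tested, 4 rose in naive and 5 in PP S55L hearts, and 0 fell. Over all genes 21.9% and 16.4% rose. Vsig4, a complement receptor of resident macrophages, rose by log2 fold changes of 4.23 (SE 0.53, adjusted p = 1.5e-06) and 3.83 (SE 0.52, adjusted p = 6.9e-06). Pf4, a chemokine of platelets that cardiac resident macrophages also express, rose by 1.74 and 1.53, and Stab1, a scavenger receptor, by 0.87 and 0.91. Of 12 further monocyte genes only Vcan and Ace gave enough reads to test. Vcan rose by 1.498 (adjusted p = 0.00059) and 1.29 (adjusted p = 0.0019), and Ace, which endothelial cells also express, by 0.58 and 0.81. Which cells the reads of Vcan and Ace came from was not tested.

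Genes of the pathways around these cells were counted in the same way. In the CSF1 and myeloid growth factor list 3 of 4 tested genes rose in both comparisons, namely Csf1 (1.04 and 0.69), Csf2ra (2.04 and 1.44) and Csf2rb (2.08 and 1.43). Among chemokines and their receptors 7 of 9 tested genes rose and 0 fell in naive S55L hearts, with Ccl12 at 2.89 and Cxcl16 at 0.94. In PP hearts 3 rose, among them Cxcl16 (1.15) and Ccl12 (1.55), and Cxcl9 fell (-1.21, adjusted p = 0.027). Of 11 tested myeloid transcription factors 6 rose and 1 fell in naive hearts, and 5 rose and 1 fell in PP hearts. Spi1, which encodes PU.1, rose by 2.73 in naive hearts (SE 0.41, adjusted p = 6.5e-06) and was not called in PP hearts (log2 fold change 0.86), and Irf5 by 1.81 and 1.21. Nr4a1, needed by patrolling monocytes but induced in many cell types, fell in naive hearts (-1.64, adjusted p = 0.015). Of the cytokine list 1 of 4 tested genes, Il1b, rose in naive hearts (4.29, SE 1.27, adjusted p = 0.012) and 0 of 4 in PP hearts. Over all genes 21.9% rose and 21.6% fell in naive hearts, and 16.4% rose and 15.2% fell in PP hearts. The cytokine counts and the counts of genes that fell were near or below these shares. They are not a result about the lists.

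Uptake and lysosomal genes outside the members rose for 10 of 16 in each comparison, with Ctsd at 1.53 and 1.58, while the fatty acid transporter Cd36 fell (-0.92 and -0.63). Of 8 tested genes of lipid-associated macrophages 5 rose and 2 fell in naive hearts, and 4 rose and 1 fell in PP hearts. Over all genes 21.9% rose and 21.6% fell in naive hearts, and 16.4% rose and 15.2% fell in PP hearts. The lipid-associated genes that fell were near the shares of all genes and are not a result about that list. Lgals3 (galectin-3) rose by 5.47 (SE 0.33, adjusted p = 4e-11) and 5.32 (SE 0.34, adjusted p = 2.5e-10), and Lpl, the lipase that heart muscle makes in quantity, fell by 1.27 and 1.28 on the log2 scale.

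Markers of other cell types were measured beside the members. Of 8 neutrophil, 8 T cell and 6 NK cell markers none passed the filter on low counts. Their summed levels were at most 4.02 CPM for neutrophils, 3.33 for T cells and 2.14 for NK cells in any of the 18 libraries, and Ly6g and Ngp had no read in any group. Of the B cell and dendritic cell markers 1 each was tested, Ighm and Zbtb46, and neither was called. The summed dendritic cell level was 6.65 to 26.0 CPM in WT naive and 19.7 to 33.4 CPM in S55L naive libraries. Of 6 cardiomyocyte markers 5 fell in each comparison, and their sum was 50888 to 64456 CPM in WT naive against 34779 to 44988 CPM in S55L naive libraries. Of 6 endothelial markers 2 fell in naive hearts and 0 in PP hearts, and of 6 fibroblast markers 2 rose in naive and 3 in PP hearts. Over all genes 21.6% fell in naive and 15.2% in PP hearts, so 2 of 6 genes in naive hearts is near the background in either direction. Of 5 tested erythroid genes 3 fell in naive S55L hearts, Alas2, the first enzyme of haem synthesis in red cells (-1.40, adjusted p = 0.0019), and the near-identical alpha globin genes Hba-a1 and Hba-a2 (both -1.23), and 0 were called in PP hearts. Their sum was 2901 to 5748 CPM in WT naive against 1573 to 3096 CPM in S55L naive libraries, and the part of blood in the members' levels was not tested. The part of a smaller share of cardiomyocyte transcripts in the members' rise was not tested.

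**Figure D3:**
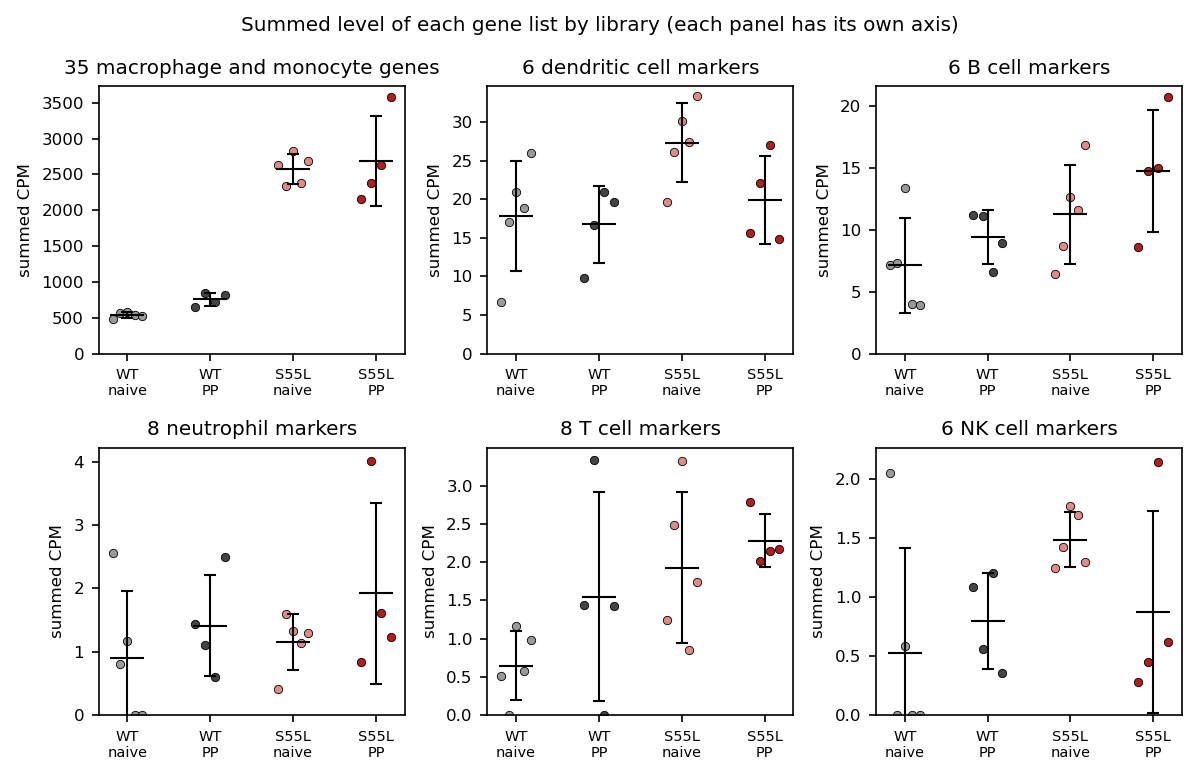
Summed CPM (y axis, a separate scale in each panel) of the 35 macrophage and monocyte genes and of 5 lists of markers of other immune cells, by library, in the 4 groups of the postpartum study. Points are libraries, horizontal bars are means and whiskers 1 SD. The members reach 3578 CPM, whereas neutrophil, T cell and NK cell markers stay at or under 4.02, 3.33 and 2.14 CPM.

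The postpartum state was examined within each genotype. Between WT PP and WT naive hearts 0 of 33 members were called by edgeR (background 0.0167% of all genes), with 10 at an unadjusted p under 0.05. Of all 11945 genes 756 had such an unadjusted p. The members' lowest adjusted p was 0.22, for Lcp1. The direction was nonetheless shared by 32 of 33 members, which had positive log2 fold changes with a median of 0.50, against -0.00 over all genes, Mertk being the exception (-0.36). For 6 members, C1qc, Adgre1, Ctss, Msr1, F13a1 and Lcp1, every WT PP library lay above every WT naive library, as was so for 0.896% of all genes. The 4 WT PP sums, from 653 CPM, likewise all lay above the 5 WT naive sums, which reached 585 CPM. Lcp1, the actin-bundling protein L-plastin, had 8.70, 11.4, 16.9, 16.5 and 12.8 CPM in WT naive and 18.7, 36.6, 21.0 and 35.3 CPM in WT PP libraries (log2 fold change 1.07, SE 0.24). Msr1 had the largest log2 fold change, 2.48 (SE 0.62, adjusted p = 0.29), on 30 reads against 5. Without WT naive 5, the library with 4 of those 5 reads, its adjusted p was 0.047. DESeq2 called 1 member here, and fits without the filter or with the plate column as a term called 2 and 3. Over all genes these settings called 12 of 7312, 21 of 29643 and 21 of 11945.

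Between S55L PP and S55L naive hearts 0 of 33 members were called (background 0%), with 3 at an unadjusted p under 0.05, Adgre1, F13a1 and Tyrobp. Of all 11945 genes 749 had such a p. The 3 members are near that share and are not a result about the members. Log2 fold changes of the members were positive for 20 and ran from -0.36 to 0.48, with a median of 0.03. Lyve1 was at -0.06 (95% interval -0.73 to 0.61), Cd163 at 0.09 (-0.60 to 0.79), Folr2 at 0.43 (-0.08 to 0.94) and Msr1 at -0.16 (-0.72 to 0.40). S55L PP 5 had the highest summed level of that group, 3578 CPM against 2152 to 2625 CPM in the others, and it had the lowest share of reads on mitochondrially encoded genes, 9.52%. Of the 5 tested erythroid genes 0 were called in this comparison, though all had positive log2 fold changes of 1.42 to 2.07 with unadjusted p under 0.05. Their sum was 1573 to 3096 CPM in S55L naive and 3657 to 10841 CPM in S55L PP libraries.

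The difference between the genotype effects in the PP and naive states was tested as an interaction. No member was called by edgeR (0 of 33, background 0%, with 7 at an unadjusted p under 0.05, and 0 by DESeq2). Of all 11945 genes 445 had such an unadjusted p. The interaction was negative for 30 of 33 members, with a median of -0.50, meaning a smaller fitted difference between genotypes in PP hearts. No member is thus shown to differ more in 1 state than in the other, and this holds too for Lyve1 (-0.57, SE 0.54), Cd163 (-0.44, SE 0.63) and Fcgr1 (-1.42, SE 0.67), which passed in naive hearts only. Msr1 had the lowest value, -2.64 (SE 0.69, unadjusted p = 0.00064, adjusted p = 0.996).

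The diet comparison asked whether EH301 eaten during breeding changed the hearts of S55L mothers. No member was called by edgeR (0 of 32, background 0%, and 0 at an unadjusted p under 0.05), and DESeq2 also called 0. Of all 10335 genes tested 138 had an unadjusted p under 0.05. Log2 fold changes of EH301 over control were positive for 21 of 32, with a median of 0.08 against 0.02 over all genes, and the diets overlapped for all 32 tested members, where 1.5% of all genes did not overlap. Lyve1 had 8.82, 26.6, 38.6 and 20.4 CPM on the control diet and 72.7, 15.4, 53.4 and 18.8 CPM on EH301, the widest difference among the members (log2 0.69, 95% interval -0.24 to 1.62). With a library left out it ran from 0.22, without EH301 diet 7, to 0.95. Folr2 had 24.3, 21.0, 16.8 and 20.1 CPM against 17.8, 45.3, 26.5 and 22.5 CPM (0.44, -0.14 to 1.02). For Cd163 the levels were 30.9, 47.5, 43.9 and 18.6 CPM against 26.4, 51.1, 41.4 and 39.1 CPM (0.13, -0.48 to 0.75). The recruited gene Msr1 had 11.03, 12.3, 16.2 and 19.3 CPM on the control diet and 19.2, 20.3, 15.2 and 14.8 CPM on EH301 (0.16, -0.34 to 0.66). Timd4 had 2.21, 0.749, 2.31 and 1.12 CPM against 1.72, 1.93, 1.90 and 1.48 CPM, and Ccr2 2.21, 1.123, 1.65 and 1.116 CPM against 1.37, 0.965, 3.79 and 0.739 CPM (exact permutation p = 0.71 and 0.91). Values of each of these 6 genes overlapped between diets. The resident minus recruited mean was 1.21 ± 0.32 on the control diet and 1.43 ± 0.14 on EH301 (SD, n = 4 each). The spread between diet libraries was wide, with a common coefficient of variation of 0.299 against 0.199 in the postpartum study.

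Of the 8 diet libraries, 2 stood apart in depth, control diet 1 (466651 reads on genes) and EH301 diet 8 (1141997). They lay above the other 6 libraries for 5 of 34 members with reads (C1qa, Csf1r, Cx3cr1, Gpnmb and Cybb) and below them for 7 (C1qc, Lyve1, F13a1, Cd14, Cd53, Mpeg1 and Cyba), where 17.8% of all genes lay above and 18.7% below. These counts are near the shares of all genes and are not a result about the members. Csf1r was at 2117 and 1957 CPM in this pair and at 434 to 854 CPM in the others. Cx3cr1 was at 547 and 571 CPM against 140 to 250 CPM. Without both libraries 0 members were called and the median log2 fold change between diets was -0.04. The C1q chains, which assemble into 1 complex, were also in other proportions than in the postpartum study: C1qa over C1qc was 0.148 to 0.632 in its 18 libraries and 4.64 to 133 in the 8 diet libraries. The 2 tables were counted separately, on different annotations, so levels are not compared across them.

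**Figure D4:**
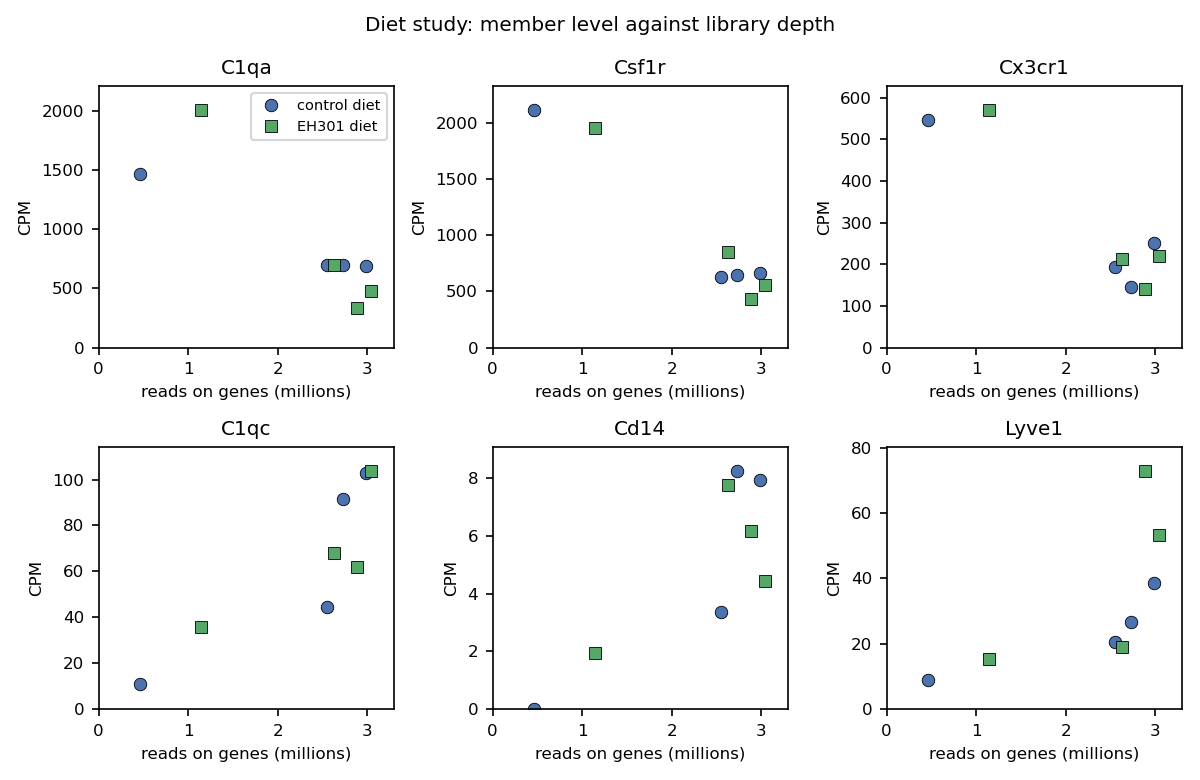
CPM of 6 members (y axis, a separate scale in each panel) against reads on genes (x axis, in units of 1000000 reads) for the 8 libraries of the diet study, control diet as circles and EH301 diet as squares. The 2 libraries under 1200000 reads are highest for C1qa, Csf1r and Cx3cr1 and lowest for C1qc, Cd14 and Lyve1, and 1 of the 2 is from each diet.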

How the data were processed

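Libraries were made from heart RNA with the Lexogen QuantSeq 3' forward kit, per the labels' protocols. The authors deposited unnormalized counts of reads on each gene. The submitters' processing notes name Trimmomatic 0.39, STAR 2.7.0f, HTSeq 0.6.1 and DESeq2 3.21, and GRCm39.p6 as the build. The annotation release, strand setting and counting mode are not given in the sources used here, so genes that overlap others are uncertain. Symbols came from GENCODE M21 by Ensembl ID, found for 51487 and 52073 IDs. The summary rows that HTSeq appends name no gene and were not counted as depth. Among them, reads at several places made up 17.5% to 27.3% of all reads for the postpartum libraries and 35.2% to 39.1% for the diet libraries.

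Counts were filtered by filterByExpr, scaled by TMM and tested with edgeR 4.0.16 (glmQLFit, robust) in R 4.3.3, the 4 groups of the postpartum study together and the 2 diets apart. Of the libraries, 18 and 8 were fitted. SE is the log2 fold change over the square root of F, and approximate 95% intervals take the normal quantile of SE either side. Ratios of low counts carry exact binomial intervals. Tests were checked on simulated counts. Members and lists were chosen with earlier results of these data known. Values in every library are given for the 6 resident and recruited genes and, per comparison, the 3 called members with the largest change and a mean of at least 5 CPM, and up to 3 called genes of each other list with the lowest adjusted p are named. Some genes that this rule names are not reported here. C1qc, Lcp1, Nr4a1, Cd36, and Ccl12 and Spi1 in PP hearts, were singled out after their values were seen. Between WT PP and S55L PP, libraries of the same number moved together around the group means (4 pairs, r = 0.119 to 0.333). The values were also positive between WT PP and S55L naive (4 pairs, r = 0.029 to 0.229). In the other pairs of groups they were not positive in every pair. No label explains the numbers. Alternatives were DESeq2 1.42.0 size factors and test, total counts, no filter, limma 3.58.1 voom, thinning, a plate column term, a replicate block, all deposited columns, only the compared groups, no mitochondrially encoded genes, no shallow diet libraries and each library left out.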

Additional observations from a re-analysis of the deposited data

Results flagged for a closer look

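Groups of 4 or 5 libraries were examined for the members described library by library and for the summed level. Of 90 such groups 9 held a library far from the rest of its group. The rule flags about 1 in 20 groups of independent, normally distributed values. These groups share the same libraries, so the 9 are not compared with that rate. Control diet 1 was the highest of 4 for C1qa (1469 CPM, others 688 to 701), Csf1r (2117 CPM, others 625 to 660) and Gpnmb (57.3 CPM, others 31.4 to 34.97). It is the shallowest library, and the part of depth was not tested. S55L naive 3 was the highest of 5 for C1qa (118.5 CPM, others 40.7 to 56.5) and Csf1r (256.8 CPM, others 144 to 170). Lyve1 was highest in WT naive 2 (30.02 CPM, others 12.0 to 14.8) and lowest in WT PP 1 (10.45 CPM, others 26.1 to 28.9). Cx3cr1 had 0 CPM in WT naive 2 (others 3.42 to 4.65), and Gpnmb 1.14 CPM in WT naive 4, where the others had 0.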

How the results depend on the processing

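In the genotype comparisons the members called, all higher, were 22 to 32 in naive hearts (29 to 31 with a library left out) and 19 to 29 in PP hearts (25 to 27), and the replicate block left 30 and 27. In WT PP against WT naive hearts no filter gave 2 calls, the DESeq2 test 1, the plate column term 3 and a library left out 0 to 1, and the replicate block 0. Over all genes the calls were 21 of 29643, 12 of 7312, 21 of 11945, 2 to 10 and 2, in the same order. The other comparisons gave 0 members under every alternative run, and the block changed no other call. With a prior count of 0.5 the resident minus recruited difference was -1.45 for S55L naive against WT naive, -1.37 for WT PP against WT naive and 1.59 for the interaction, against -0.92, -0.75 and 0.97. With a library left out these were -1.09 to -0.65, -0.92 to -0.48 and 0.70 to 1.14.

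Signs were followed for every tested member in the genotype comparisons and only for Lyve1, Cd163, Folr2 and Msr1 in the others. Among these, signs turned only for differences that were never called. Under voom these were Cyba in PP hearts (-0.029) and, between S55L PP and S55L naive, Msr1 (0.0064) and Cd163 (-0.048). In the same S55L comparison Lyve1 turned with total counts (0.012), thinning (0.011), the plate column (0.52) and the replicate block (0.013), and Cd163 with all columns (-0.0083) and thinning (-0.28). Cd163 turned with the plate column in the interaction (0.54), and between diets with the shared column kept as control (-0.012) and without the shallow libraries (-0.053). With a library left out, values ran from -0.34 to 0.35 for Cd163 and -0.31 to 0.29 for Lyve1 between S55L PP and S55L naive, -0.11 to 0.12 for Cyba in PP hearts, -0.044 to 0.36 for Folr2 in the interaction and -0.13 to 0.31 for Cd163 between diets. The plate column term was not run for the diets, where it could not be fitted. Few reads limit Timd4, Ccr2, Msr1 and Gpnmb in WT, and 0 reads for Itgam in the diet study allow no comparison.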
